A study of Fragaria hybrid cultivar with 9 samples.

Results

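The miR160 family was followed in petals of the pink-flowered strawberry 'Sijihong', a hybrid of Fragaria and Potentilla, at 3 stages of petal colouring. Members were taken by name, as every listed miRNA whose name carries miR160 or MIR160. They came to 17 names and 16 distinct sequences, of 1703 names and 1660 distinct sequences in the whole table. The groups were young buds (PF_L), buds in which colour begins to show (PF_Z) and big buds (PF_D), each with 3 biological replicates from plants of 1 cultivar grown in open ground. All 9 small RNA libraries came from whole petals, so fewer cells of a type and less RNA per cell cannot be told apart. No plant ages were given, and stage is the sole labelled factor that separates the groups. Sequencing depth differed between the stages too, as given below.

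miR160 is one of the oldest plant miRNA families. In Arabidopsis it guides cleavage of the transcripts of ARF10, ARF16 and ARF17, auxin response factors that repress auxin-responsive genes, and Arabidopsis plants with a miR160-resistant ARF17 have abnormal flowers and small petals. The miRNA is cut from a hairpin precursor as a duplex. The 5p strand is the one loaded to find targets, and the 3p strand, called the passenger or star strand, is usually degraded.

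The members that carried almost all of the signal are shown first, because the comparisons turn on how the 5p and 3p strands and their end variants differ. Every sequence is given 5′ to 3′ as DNA letters, with bases 2 to 8 (the seed) in capitals. A name gives the miRBase entry matched (mdm for apple, csi for sweet orange, ptc for poplar), then bases added or lost at the left (L) or right (R) end and substitutions (ss).
mdm-miR160a: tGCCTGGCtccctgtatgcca
mdm-miR160a_1ss21AG: tGCCTGGCtccctgtatgccg
mdm-miR160a_R+1: tGCCTGGCtccctgtatgccat
csi-miR160c-5p_R+1_1ss19CT: tGCCTGGCtccctgtatgtttt
mdm-miR160a_L+3: aTCTGCCTggctccctgtatgcca
mdm-miR160a_L+1R-1: gTGCCTGGctccctgtatgcc
csi-miR160a-3p: gCGTATGAggagccatgcata
csi-miR160b-3p: gCGTACGAggagccaagcata

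The first 4 of these share the seed GCCTGGC and differ at the 3′ end alone. Counted from the 5′ end of mdm-miR160a, mdm-miR160a_1ss21AG carried A21G, and csi-miR160c-5p_R+1_1ss19CT carried C19T, C20T and A21T with 1 further base. The L+3 and L+1R-1 forms began upstream of that start, which moves the seed. Between 99.3% and 99.7% of the normalized reads of the 8 forms of the 5p strand in a library began at the same base as mdm-miR160a.

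The 3p entries matched each other at 19 of 21 bases, with T6C and T16A in csi-miR160b-3p relative to csi-miR160a-3p. Laid against mdm-miR160a with a 2-base overhang at each 3′ end, the geometry that Dicer-like cutting leaves, both paired at 17 of 19 positions. csi-miR160a-3p made 14 Watson-Crick pairs and 3 G to U pairs, and csi-miR160b-3p made 15 and 2. The unpaired bases were at positions 4 and 12 of mdm-miR160a in both duplexes. Their precursors were not located here.

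Of the 16 sequences, 8 were above 0 in every library, and these are the 8 printed. Some of the scarce entries overlapped with these in part. mdm-MIR160a-p3_1ss16AG shared a run of 12 bases with a 3p strand, cme-MIR160c-p5_2ss13AG17AG shared 10 with a 3p strand although its name says p5, and aau-miR160_L+1R+2_1ss8AC matched 14 bases of the 5p strand in reverse complement. Entries that fell in neither strand by sequence were tae-MIR160-p3_1ss5CT, lus-MIR160d-p3_2ss14GT19GA and cme-MIR160d-p3_2ss16AG17CT. The tae sequence stands in the table under a p3 and a p5 name and was counted once.

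The values are normalized reads, as deposited. In a library the most common value above 0 was taken as the worth of 1 read, which was 0.713 to 0.882 at PF_L, 1.05 to 1.09 at PF_Z and 1.07 to 1.27 at PF_D. On that basis the distinct listed sequences held 1054928 to 1239876 reads at PF_L, 751798 to 1103232 at PF_Z and 962359 to 1210924 at PF_D, and mdm-miR160a alone held 4255 to 13937 reads a library. These reads made up 6.54% to 8.71% of the valid reads at PF_L, 6.79% to 13.5% at PF_Z and 15.4% to 15.97% at PF_D. The share of reads in listed miRNAs was thus highest at PF_D. Valid reads numbered 14105524 to 16131629 at PF_L, 8178629 to 11065157 at PF_Z and 6228366 to 7581963 at PF_D, so depth was highest at PF_L. The part of the share and of the depth in the results was not tested.

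Over the whole family, petals held fewer normalized miR160 reads at the big bud stage than at the young bud stage. The family total was 12746, 12004 and 12337 normalized reads in PF_L replicates 1, 2 and 3, then 9847, 7106 and 7811 at PF_Z and 6524, 5242 and 6980 at PF_D. PF_L lay above every library of the later stages, and PF_D lay below every PF_Z library. The means were 12362 ± 371, 8255 ± 1423 and 6248 ± 901 at PF_L, PF_Z and PF_D (SD, n = 3 each). The family ranked 14 of 162 by its mean total.

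PF_D against PF_L, the total fell by 0.99 on the log2(value + 1) scale (SE 0.20, 95% interval -1.43 to -0.56, limma adjusted p = 0.00331). Of the 139 families tested 30.2% were called in this comparison and 11.5% were called lower. PF_Z against PF_L the change was -0.60 (limma adjusted p = 0.0885, with 10.1% of families called), and PF_D against PF_Z it was -0.40 (limma adjusted p = 0.3, with 7.19% called). Neither passed the threshold of 0.05.

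The size of the PF_D change rests on the scaling. When each library was set to its valid reads, the PF_D against PF_L value was -0.40 (limma adjusted p = 0.251) and the call ended. The scalings move all miRNAs together: the median over 501 sequences with a mean of 5 or more was -0.16 as deposited and 0.42 per valid read. Relative to that median the family total lay at -0.84 as deposited and at -0.81 per valid read. With equal library totals the relative value was -0.87, and with the median of ratios it was -0.84. A scaling shifts the family total and the median alike, so these relative values had to lie close and are no separate support. The median is also of single sequences, and over the 139 families it was 0.23 as deposited.

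**Figure D1:**
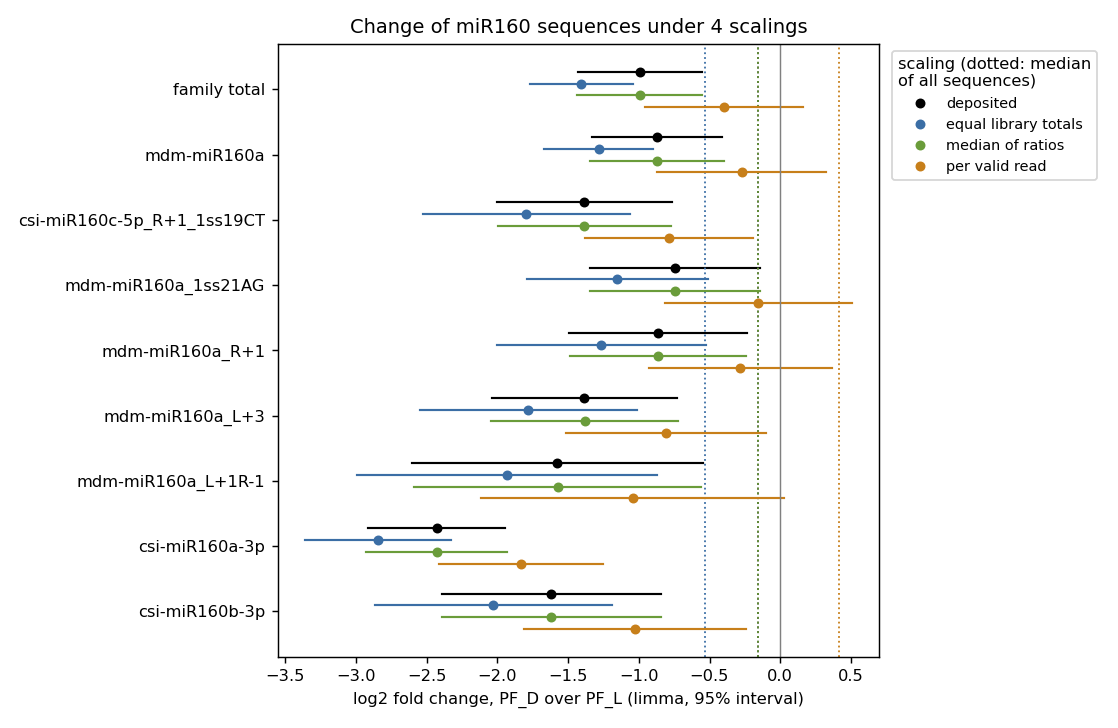
Log2 fold change of the family total and of the 8 members above 0 in every library, PF_D over PF_L, under 4 scalings of the libraries. Points are limma estimates, bars are 95% intervals, and dotted lines mark the median of 501 sequences under each scaling. Every point lies below 0 and below its own dotted line, and csi-miR160a-3p lies farthest left.

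mdm-miR160a, the mature 5p strand, made up most of the family. It had 10489, 9942 and 10490 normalized reads at PF_L, 8438, 5742 and 6305 at PF_Z, and 5872, 4801 and 6341 at PF_D. The PF_L libraries were above all others, while PF_Z and PF_D overlapped. The means were 10307 ± 316 at PF_L, 6828 ± 1422 at PF_Z and 5671 ± 789 at PF_D (SD, n = 3 each).

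mdm-miR160a fell by 0.87 on the log2 scale PF_D against PF_L (SE 0.22, limma adjusted p = 0.0116). The other comparisons gave -0.61 PF_Z against PF_L (limma adjusted p = 0.214) and -0.26 PF_D against PF_Z (limma adjusted p = 0.574), and neither was called. The PF_D against PF_L call was lost without PF_L replicate 3 (limma adjusted p = 0.0516), without PF_D replicate 2 (0.0592), with no trend in the prior on the spread (0.120) and per valid read (-0.27, 0.584).

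csi-miR160a-3p, the more abundant passenger strand, was lower in the big buds than at both earlier stages. It had 1232, 1270.5 and 1039 normalized reads at PF_L and 950.1, 824 and 806 at PF_Z, but 255, 173 and 233 at PF_D. The PF_D libraries sat far below the other stages, with no overlap between any stages. The means were 1181 ± 124 at PF_L, 860.2 ± 78.4 at PF_Z and 220.3 ± 42.6 at PF_D (SD, n = 3 each).

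On the log2 scale csi-miR160a-3p fell by 2.43 PF_D against PF_L (SE 0.23, limma adjusted p = 1.33e-06) and fell by 1.98 PF_D against PF_Z (SE 0.23, limma adjusted p = 4.23e-05). PF_Z against PF_L it changed by -0.45 and was not called (limma adjusted p = 0.375). The PF_D against PF_L call held in all 20 alternatives run, which gave -2.84 to -1.83.

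csi-miR160b-3p is the scarcer passenger strand. It had 361, 269.6 and 196 normalized reads at PF_L, 155, 229.8 and 204 at PF_Z, and 112, 42.9 and 133 at PF_D. Its PF_D libraries were again the lowest, and PF_L and PF_Z overlapped. It fell by 1.62 on the log2 scale PF_D against PF_L (SE 0.37, limma adjusted p = 0.00617), and the value PF_D against PF_Z was -1.16 (limma adjusted p = 0.0937).

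**Figure D2:**
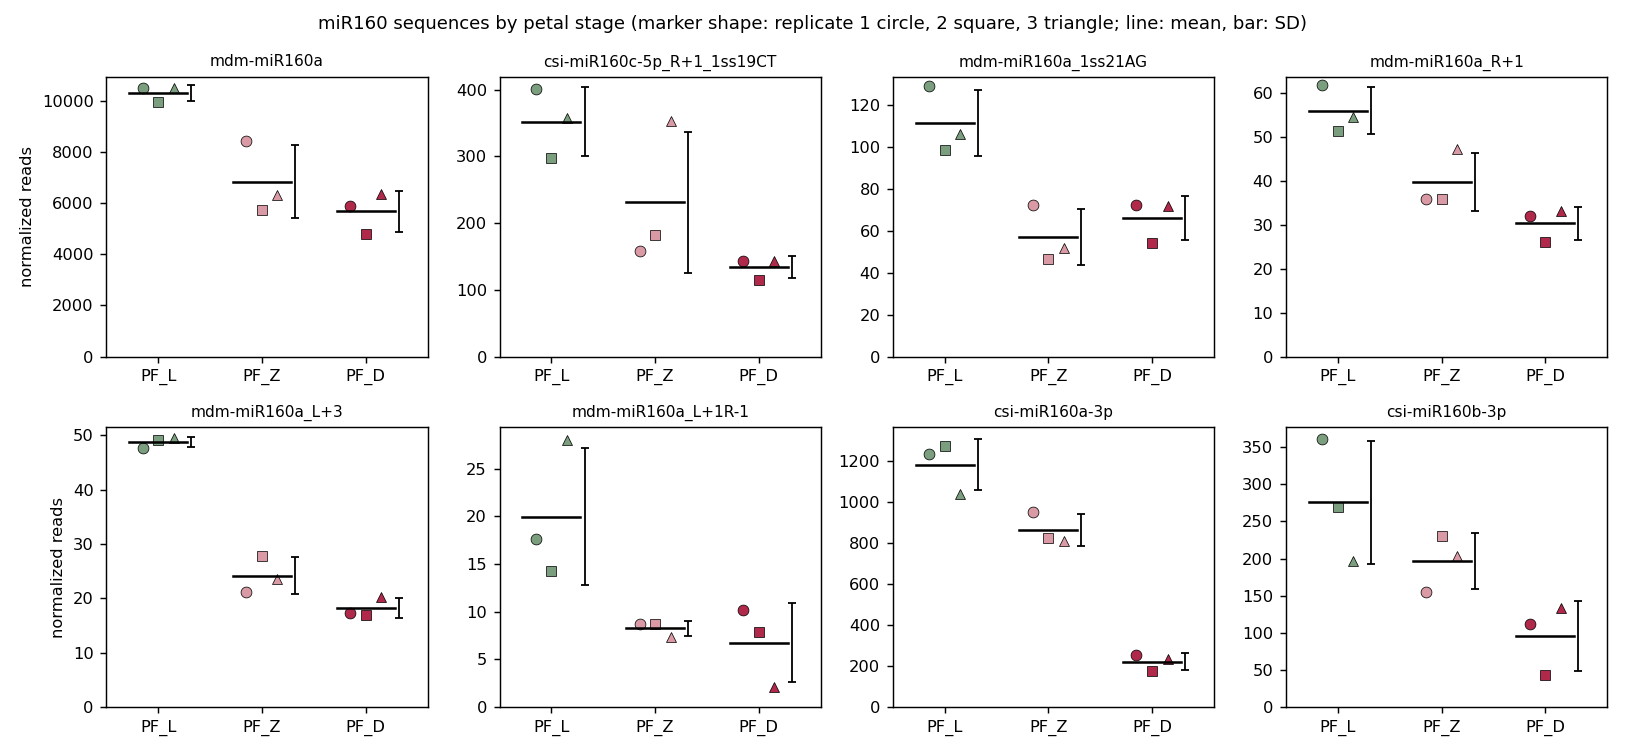
Normalized reads of the 8 miR160 sequences above 0 in every library at PF_L, PF_Z and PF_D, each panel on its own linear axis from 0. Points are libraries, lines are means and bars are SDs of 3 replicates. mdm-miR160a is highest at PF_L and overlaps between PF_Z and PF_D, whereas csi-miR160a-3p is separate at every stage and lowest at PF_D, between 173 and 255.

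Among the 3′-end variants of the 5p strand, csi-miR160c-5p_R+1_1ss19CT was the most abundant, and it ends in a run of T. It had 401, 297 and 358 normalized reads at PF_L, 158, 183 and 353 at PF_Z, and 144, 115 and 143 at PF_D. One PF_Z library reached the PF_L range, and PF_D lay wholly below both stages. It fell by 1.38 on the log2 scale PF_D against PF_L (SE 0.29, limma adjusted p = 0.00395).

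mdm-miR160a_1ss21AG, with the last base replaced, had 129, 98.8 and 106 normalized reads at PF_L, 72.3, 46.8 and 52.0 at PF_Z, and 72.6, 54.2 and 71.9 at PF_D. The PF_L libraries were highest, and PF_Z and PF_D overlapped almost fully. Its value of -0.75 PF_D against PF_L was not called (SE 0.29, limma adjusted p = 0.0856), nor was the -0.97 PF_Z against PF_L (limma adjusted p = 0.127). PF_D against PF_L it was called with a filter at a mean of 5 (limma adjusted p = 0.0443) and with equal library totals (-1.15, 0.0143).

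mdm-miR160a_R+1, with 1 extra base at the 3′ end, had 61.7, 51.4 and 54.4 normalized reads at PF_L, 35.9, 35.9 and 47.2 at PF_Z, and 31.9, 26.0 and 33.0 at PF_D. The stages did not overlap, yet the -0.86 PF_D against PF_L missed the threshold (SE 0.30, limma adjusted p = 0.056). With a filter at a mean of 5 it was called (limma adjusted p = 0.0237), and likewise with a pseudocount of 5, with the stages fitted alone and with equal library totals.

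The forms that begin upstream of mdm-miR160a were scarcer. mdm-miR160a_L+3, with 3 extra bases at the 5′ end, had 47.6, 49.2 and 49.5 normalized reads at PF_L, 21.2, 27.8 and 23.6 at PF_Z, and 17.2, 16.9 and 20.3 at PF_D. The PF_L libraries agreed within an SD of 1.001 around a mean of 48.8 and were well above the rest. It fell by 1.38 on the log2 scale PF_D against PF_L (SE 0.31, limma adjusted p = 0.00591).

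mdm-miR160a_L+1R-1, shifted upstream by 1 base at both ends, had 17.6, 14.3 and 28.04 normalized reads at PF_L, 8.70, 8.71 and 7.35 at PF_Z, and 10.2, 7.90 and 2.13 at PF_D. PF_L was above the other stages, which overlapped. It fell by 1.58 on the log2 scale PF_D against PF_L (SE 0.49, limma adjusted p = 0.0352), a call lost without PF_L replicate 1 (-1.63, adjusted p = 0.0884), PF_L replicate 3 (-1.31, 0.155) or PF_D replicate 3 (-1.02, 0.153). It was also lost with no trend in the prior on the spread (-1.58, limma adjusted p = 0.0607) and per valid read (-1.04, 0.190).

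The other 8 sequences never reached 10 normalized reads in a library. ptc-miR160h_1ss17TC, a 5p form with T15C and T17C, had 0.882, 1.43 and 2.47 at PF_L and 1.09, 0 and 4.72 at PF_Z, and was listed at 0 in all PF_D libraries. ptc-miR160h_L+2_1ss17CT had 0 to 3.71 at PF_L, 0 to 2.62 at PF_Z and 0 to 0.564 at PF_D. Both are 5p forms, and their levels are those of a few reads. aau-miR160_L+1R+2_1ss8AC reached 6.60 in PF_L replicate 3 and was at 0 at PF_D, and mdm-MIR160a-p3_1ss16AG stayed at or under 4.28 throughout. The remaining 4 never exceeded 3 reads in any library.

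Of the 16 sequences, 15 were above 0 in at least 3 libraries and were tested. PF_D against PF_L, 7 were called, against 16.3% of the 1554 listed miRNAs tested, and 6 of them were lower, against 8.17% of the listed miRNAs. The 6 are mdm-miR160a, both 3p strands, csi-miR160c-5p_R+1_1ss19CT, mdm-miR160a_L+3 and mdm-miR160a_L+1R-1. The one called higher, against 8.11% of the listed miRNAs, was tae-MIR160-p3_1ss5CT (limma adjusted p = 0.0264). That call was lost without PF_L replicate 1 (0.125), 2 (0.0695) or 3 (0.0801), without PF_D replicate 1 (0.0631) or 2 (0.0567), and with equal library totals (0.0519). The tae sequence had 3.82, 3.39 and 2.13 normalized reads at PF_D, against 0, 0.357 and 0.412 at PF_L. These values are 3 reads or fewer, so no fold is given, and its sequence matches neither strand.

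The median change of the 15 sequences was -1.26, where that of all 1554 tested miRNAs was -0.28. The -1.26 is the value of ptc-miR160h_L+2_1ss17CT, a sequence of a few reads, so it does not give the fall of the family's reads. mdm-miR160a, which held most of them, changed by -0.87. Of the 15, 2 were listed at 0 in every PF_D library. PF_Z against PF_L, limma called 0 of the 15, with 6 at an unadjusted p under 0.05 and 1.16% of listed miRNAs called. PF_D against PF_Z, csi-miR160a-3p was the 1 sequence called, against 3.67% of listed miRNAs. Per valid read, 2 sequences were called PF_D against PF_L, csi-miR160a-3p and the tae sequence. Without PF_L replicate 3, 4 were called: both 3p strands, csi-miR160c-5p_R+1_1ss19CT and mdm-miR160a_L+3. The share of all listed miRNAs called in these settings is not given here. The counts in these settings therefore cannot be set beside those of all miRNAs. As deposited, 126 of the 1554 listed miRNAs were called higher PF_D against PF_L and 127 lower.

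A ratio between members of 1 library does not depend on how the libraries were scaled. As a percent of mdm-miR160a in the same library, csi-miR160a-3p stood at 11.7, 12.8 and 9.91 at PF_L, 11.3, 14.4 and 12.8 at PF_Z, and 4.34, 3.60 and 3.68 at PF_D. PF_L and PF_Z overlapped, and PF_D was far below both. The means were 11.5% ± 1.46 at PF_L, 12.8% ± 1.55 at PF_Z and 3.87% ± 0.407 at PF_D (SD, n = 3 each).

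csi-miR160b-3p averaged 2.67% ± 0.785 of mdm-miR160a at PF_L, 3.02% ± 1.09 at PF_Z and 1.63% ± 0.649 at PF_D (SD, n = 3 each). Its stages overlapped. Expressed as 3p reads per 100 reads of the 5p forms, the 3p strands summed gave 13.4 ± 1.96 at PF_L, 14.98 ± 2.39 at PF_Z and 5.27 ± 0.873 at PF_D. A two-sided exact permutation test gave p = 0.1 for PF_D against PF_L and for PF_D against PF_Z, which is the smallest p that 3 against 3 allows, and p = 0.4 for PF_Z against PF_L.

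**Figure D3:**
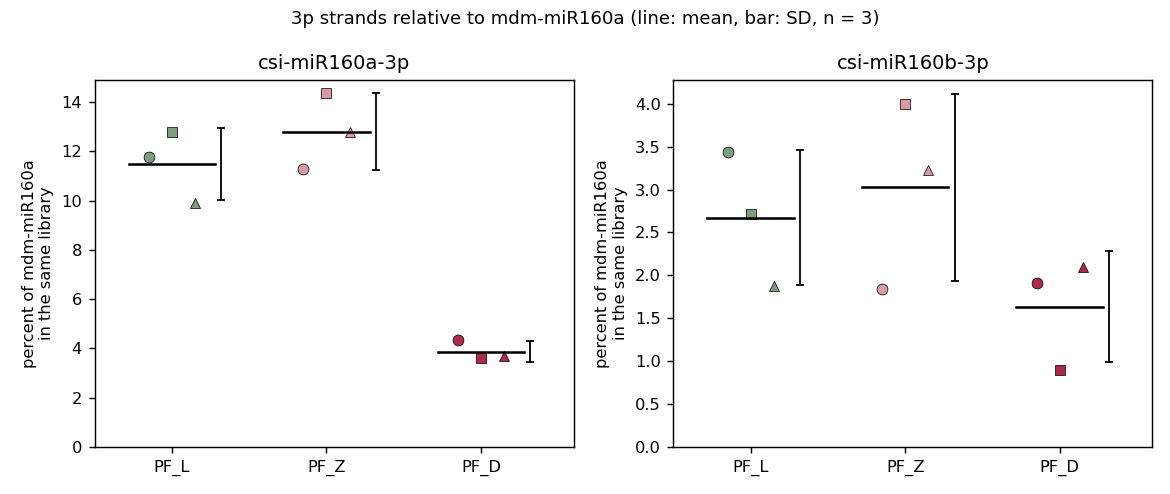
Level of each 3p strand as a percent of mdm-miR160a in the same library, at PF_L, PF_Z and PF_D. Points are libraries, lines are means and bars are SDs of 3 replicates. The PF_D points of csi-miR160a-3p lie between 3.60 and 4.34, below every other library, and those of csi-miR160b-3p overlap with the other stages.

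The same was tested for each sequence against the rest of its family, over 425 sequences of all families. PF_D against PF_L, csi-miR160a-3p fell by 1.53 relative to the other miR160 reads on the log2 scale (SE 0.17, 95% interval -1.91 to -1.15, limma adjusted p = 3.80e-05). mdm-miR160a rose by 0.98 relative to the rest (limma adjusted p = 0.00152). These values are not independent, since csi-miR160a-3p is the largest item in the rest. In all, 4 of 15 miR160 sequences were called in this comparison, where 28.9% of the 425 were, and 2 of the 4 never exceeded 3 reads. The fit adds 1 to each value, so the ratios of sequences with so few reads still depend on the scaling.

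PF_D against PF_Z, csi-miR160a-3p fell by 1.69 relative to the rest (limma adjusted p = 3.42e-05) and mdm-miR160a rose by 1.07 (limma adjusted p = 0.00152), among 3 called where 8.94% of the 425 were. Set against the family total, which includes mdm-miR160a itself, its change PF_D against PF_Z was 0.14 and was not called (limma adjusted p = 0.0689), and PF_D against PF_L it was 0.12 (0.0466). PF_Z against PF_L, limma called 0 of the 15 ratios, with 1 at an unadjusted p under 0.05 and 8.47% of the 425 called. csi-miR160a-3p changed by 0.16 there (limma adjusted p = 0.629).

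The other sequences above 0 in every library were not called against the rest of the family PF_D against PF_L. The ratio of csi-miR160b-3p changed by -0.64 (95% interval -1.42 to 0.15, limma adjusted p = 0.196). That of csi-miR160c-5p_R+1_1ss19CT changed by -0.40 (-1.07 to 0.27), and that of mdm-miR160a_L+3 by -0.39 (-1.03 to 0.25). The intervals for mdm-miR160a_1ss21AG were -0.21 to 0.71 and for mdm-miR160a_R+1 -0.44 to 0.70. The estimate of -1.53 for csi-miR160a-3p lies outside all of these intervals, apart from that of mdm-miR160a_L+1R-1 (-1.72 to 0.55). Its own interval of -1.91 to -1.15 overlaps those of csi-miR160b-3p and mdm-miR160a_L+1R-1. The difference between the 3p strands themselves was not tested.

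The 3′-end variants were also set against mdm-miR160a alone. mdm-miR160a_R+1 stood at 0.541% ± 0.0410 of mdm-miR160a at PF_L, 0.600% ± 0.164 at PF_Z and 0.535% ± 0.0118 at PF_D. mdm-miR160a_1ss21AG stood at 1.08% ± 0.132, 0.832% ± 0.0217 and 1.17% ± 0.0611 at the same stages (SD, n = 3 each). csi-miR160c-5p_R+1_1ss19CT ran widest, with 1.87%, 3.19% and 5.59% in the PF_Z libraries and a mean of 3.41% at PF_L and 2.37% at PF_D.

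By strand, the 5p forms summed to 10899 ± 383 normalized reads at PF_L, 7192 ± 1388 at PF_Z and 5927 ± 817 at PF_D, so that PF_D held 0.544 times the PF_L level. The 3p strands summed to 1456 ± 193, 1056 ± 48.0 and 316 ± 87.3 at these stages, so that PF_D held 0.217 times the PF_L level. mdm-miR160a made up 83.4% ± 1.45 of the family at PF_L, 82.4% ± 2.85 at PF_Z and 90.8% ± 0.798 at PF_D (SD, n = 3 each). The 3p strands made up 11.8% ± 1.54, 13.0% ± 1.81 and 5.00% ± 0.789. Sequences of 21 bases held 96.3%, 96.2% and 97.0% of the family reads, at the 3 stages.

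The auxin pathway is served by further miRNA families, and 4 of the 5 on the list were measured. In Arabidopsis, miR167 cuts ARF6 and ARF8 transcripts, miR390 starts the TAS3 small RNAs that act on ARF2, ARF3 and ARF4, and miR393 cuts the transcripts of the TIR1 and AFB auxin receptors. PF_D against PF_L, 2 of the 4 families were called lower, miR160 and miR390, and 1 higher, miR393, where 11.5% of all families were called lower and 18.7% higher. The median change of the 4 was -0.39, against 0.23 over the 139 families. The fifth, miR847, was looked for, and no listed miRNA carried that name.

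The miR390 family averaged 21334 ± 1773 normalized reads at PF_L, 11645 ± 2313 at PF_Z and 5182 ± 1221 at PF_D, and it fell by 2.07 on the log2 scale PF_D against PF_L (limma adjusted p = 9.84e-05). The miR393 family averaged 734 ± 106, 1758 ± 266 and 15584 ± 5743 at these stages, and it rose by 4.34 (limma adjusted p = 6.90e-07). These families moved in opposite directions, and miR160 was lower at PF_D as miR390 was. The miR167 family averaged 3612 ± 214, 4206 ± 2078 and 4180 ± 483 (SD, n = 3 each), with a change of 0.21 that was not called (limma adjusted p = 0.632) and was -0.21 with equal library totals.

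**Figure D4:**
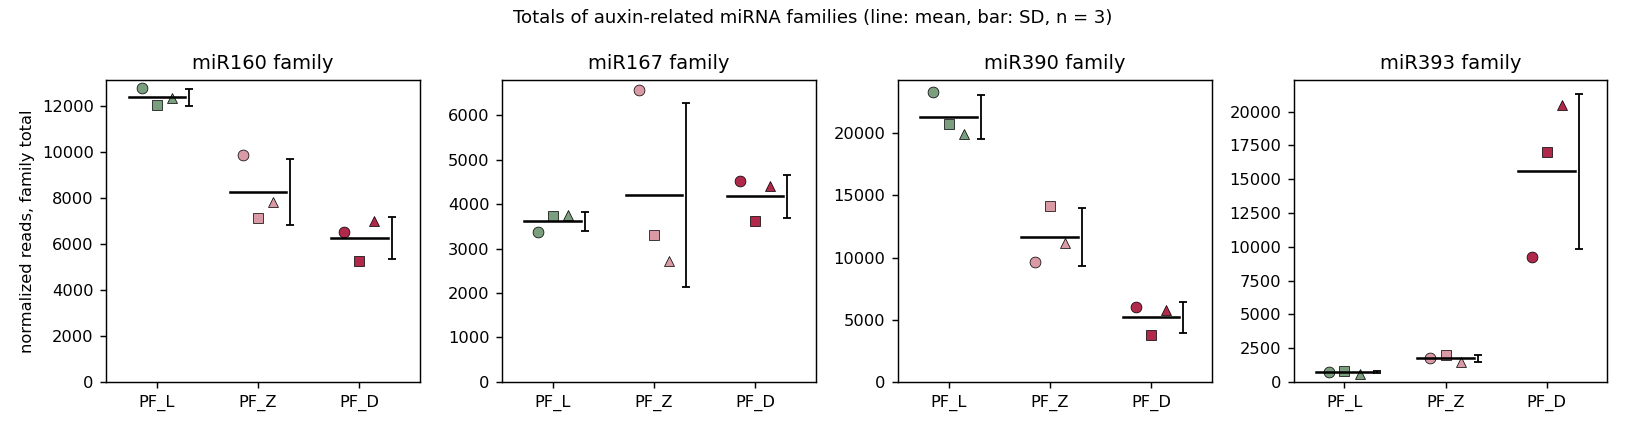
Family totals in normalized reads of the miR160, miR167, miR390 and miR393 families at PF_L, PF_Z and PF_D, each panel on its own linear axis from 0. Points are libraries, lines are means and bars are SDs of 3 replicates. miR160 and miR390 are highest at PF_L, miR393 is highest at PF_D, and miR167 overlaps between stages.

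Of 164 sequences of other families with a mean of at least 50 normalized reads, those whose log2 values followed mdm-miR160a most closely over the 9 libraries were mdm-miR169a (Pearson r = 0.92), mdm-miR166a_2ss15AG20CT (0.89), mdm-miR171j (0.88), osa-miR162a_R+2 (0.87) and ppe-miR398b_2ss10AC20TG (0.85). The points share 3 stages and the scaling of each library, so the values are a description. mdm-miR169a averaged 398 normalized reads at PF_L, 195 at PF_Z and 129 at PF_D, and like mdm-miR160a it was highest in the young buds. The likeness is of single sequences. PF_D against PF_L, the miR169 and miR171 family totals rose by 1.61 and 1.02 on the log2 scale (limma adjusted p = 9.48e-04 and 0.00326). Those of miR166 (0.27), miR162 (-0.23) and miR398 (-0.32) were not called.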

How the data were processed

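Small RNA was sequenced from petals in 9 libraries, 3 for each of 3 stages. The authors trimmed reads with ACGT101-miR, matched them to miRBase 22.0 entries and deposited normalized reads, a signal per sequence that is not a raw count. The search used BLAST, and the formula of the normalization is not given in the sources used here. 173 repeated lines were dropped. log2(value + 1) was fitted over all 9 libraries with limma 3.58.1 (R 4.3.3), with a trended prior, for 1554 miRNAs above 0 in at least 3 libraries, and for 139 families and 425 within-family ratios, with Benjamini-Hochberg adjustment over each table and a threshold of 0.05. Exact permutation tests used scipy 1.17.1. The fits were tried on simulated data with changes larger than those of the family total and mdm-miR160a. That trial does not cover changes of their size. Every distinct miR160 sequence was accounted for, those with a stage mean of at least 50 or on the list of members by library. Outside the family the auxin list and the 5 most similar miRNAs are named. The members and lists were chosen with earlier results of these data known. Libraries of the same replicate number were checked for pairing over 501 sequences (correlations -0.10 to 0.28). Libraries of different numbers were not compared in this way, so the check does not settle whether the numbers pair them. Alternatives were other pseudocounts, filters, scalings, fits, family definitions and left-out libraries. Valid reads came from the study's sequencing overview. Each stage has 3 libraries, which limits the precision of every interval. Messenger RNA, degradome and PCR data were not analysed here.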

Additional observations from a re-analysis of the deposited data

How the results depend on the processing

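Over the alternatives run, the family total and the 8 members above 0 in every library stayed lower in PF_D than in PF_L in each one, and csi-miR160a-3p kept its call in each. PF_D against PF_L, 7 miR160 sequences were called and 2 per valid read, 4 of 15 ratios were called and 2 with a mean of at least 5, and the family total was -0.40 per valid read (limma adjusted p = 0.251). With equal library totals the family total passed the threshold PF_Z against PF_L (-0.60, limma adjusted p = 0.0363) and PF_D against PF_Z (-0.80, 0.0128), and 2 sequences in place of 1 were called PF_D against PF_Z. With a pseudocount of 5, 1 ratio in place of 0 was called PF_Z against PF_L. With every listed line summed, mdm-miR160a made up 89.8% of the family in PF_D.

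Leaving out each library in turn gave 4 to 7 sequences, 3 to 4 ratios and a family total of -1.08 to -0.87 PF_D against PF_L (limma adjusted p 8.01e-04 to 0.0215). PF_Z against PF_L it gave 0 to 0 sequences, 0 to 1 ratios (1 without PF_Z replicate 3) and -0.73 to -0.49, which passed the threshold without PF_Z replicate 1 (limma adjusted p = 0.0315). PF_D against PF_Z it gave 1 to 1 sequences, 2 to 3 ratios and -0.50 to -0.26. The causes were not tested. Counts of calls in the alternatives are given without the share of all miRNAs called in the same setting, so they describe the family alone.

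With the replicate number as a block, 8 sequences were called PF_D against PF_L, 0 PF_Z against PF_L and 1 PF_D against PF_Z, and the family total was -0.99 (limma adjusted p = 0.00462), -0.60 (0.088) and -0.40 (0.286), so the block changed no call of the family total. The edgeR and DESeq2 alternatives were not run, because whole reads were not recovered in every library. Depth limits the 8 scarce sequences, whose levels are those of a few reads.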
